A study of Caenorhabditis elegans with 4 samples.

Results

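The hedgehog-related and patched-related genes of the nematode Caenorhabditis elegans were followed in whole worms on 2 diets. They were chosen by name, as every gene of the count tables in the classes wrt, grd, grl, hog, qua, ptr and ptc, which gave 87 of 46904 genes. Of these, 61 belong to the hedgehog-related classes (10 wrt, 17 grd, 32 grl, 1 hog and 1 qua) and 26 to the patched-related classes (23 ptr and 3 ptc). RNA came from whole wild-type Bristol N2 hermaphrodites, with about 200 worms in a group. The control worms ate OP50, the Escherichia coli strain commonly used as worm food. The other worms were labelled as fed OP50 together with MH-1, a Lactiplantibacillus lactic acid bacterium. Each diet had 2 libraries, and nothing states that these came from separate cultures, so p-values measure the spread between libraries, which may be technical. The texts conflict on age and feeding, giving either 4-day-old worms fed for 1 day or 1-day-old worms kept on the food for 2 days, and the protocol names MH-1 as an alternative to OP50, not a mixture.

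The labels also conflict on which library is which. The sample titles put the libraries in the groups used here, but the header of every count column names the opposite diet. Directions follow the titles throughout, with OP50 libraries and MH-1 libraries named by them, and each direction would turn around, with the same size and p-value, if the headers were correct.

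In flies and vertebrates, Hedgehog is a secreted signal that is cut by its own carboxy-terminal Hint domain, and Patched is a membrane protein with a sterol-sensing domain that receives it. C. elegans lacks a typical Hedgehog ligand and Smoothened, the usual partner of Patched. It has instead warthog (wrt), groundhog (grd), ground-like (grl), quahog (qua) and hog proteins. Many of the wrt, grd, qua and hog proteins carry the Hint domain, and the grl proteins lack it. It also has a large set of patched-related (ptr) proteins beside its ptc proteins. Many of these genes are known for roles in the epidermis, the cuticle, molting and glia.

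Most of the 87 genes were expressed at low levels. In libraries of between 15771890 and 21572225 counts, these genes took between 0.128% and 0.132% of all counts. No read was found for grl-19, grl-24, grl-29 and grd-17, 63 genes had a read in every library, and 30 had fewer than 10 counts in each. Only ptc-1 and ptr-2 had at least 1000 counts in every library. A count of 3, roughly the most that a count of 0 allows, equals between 0.139 and 0.190 CPM (read counts scaled to a common library size). This range used unadjusted library totals, unlike the other CPM values, and considered counting error alone. The low-count filter left 45 genes for testing, 21 hedgehog-related and 24 patched-related. In the Ensembl annotation 84 of the 87 are protein-coding, and ptc-2, grl-32 and grd-17 are pseudogenes. By chromosome, 34 lie on V, 13 on IV, 13 on X, 12 on II, 9 on I and 6 on III. The spans of 19 of them overlap a coding gene on the opposite strand, and whether the counting used strand is not given in the sources used. Among the genes named below, the 19 include wrt-2, grd-11, grl-14, grl-15, grl-22, hog-1, ptr-1, ptr-8, ptr-10, ptr-15 and ptr-18. The overlap was taken over whole spans, introns included. How far reads from the partners entered the counts of these 19 genes is therefore not known.

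Per length, the patched-related genes ptc-1 and ptr-2 stood highest. In TPM, which scales counts by gene length and library, ptc-1 averaged 171 and ptr-2 averaged 168 over the 4 libraries, and their ranges overlapped (141 to 190 and 157 to 177 TPM). The groundhog genes grd-5 (86.3 TPM) and grd-3 (70.0 TPM) came next, also with overlapping ranges. After them, wrt-10 averaged 32.6 TPM, with a range from 6.49 to 71.1 that spanned the means of wrt-5 (14.3 TPM), ptr-21 (13.1 TPM) and grl-4 (12.5 TPM). ptc-3 averaged 7.02 TPM, and every gene below it averaged less. The summed level of the hedgehog-related classes was 220 and 190 TPM on OP50 and 314 and 292 TPM with MH-1. The summed level of the patched-related classes was 413 and 419 TPM against 360 and 393 TPM. For both sums the diets did not overlap, one higher and the other lower with MH-1, and these sums were not tested. A few genes weighed heavily on them. From OP50 to MH-1 the mean TPM went from 186 to 156 in ptc-1, from 175 to 160 in ptr-2 and from 9.22 to 56.0 in wrt-10. Of 24 tested patched-related genes, 13 had a positive and 11 a negative log2 fold change. Of 21 tested hedgehog-related genes, 16 were positive and 5 negative. In whole worms, a lower level from fewer cells of a type cannot be told apart from less RNA per cell.

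**Figure D1:**
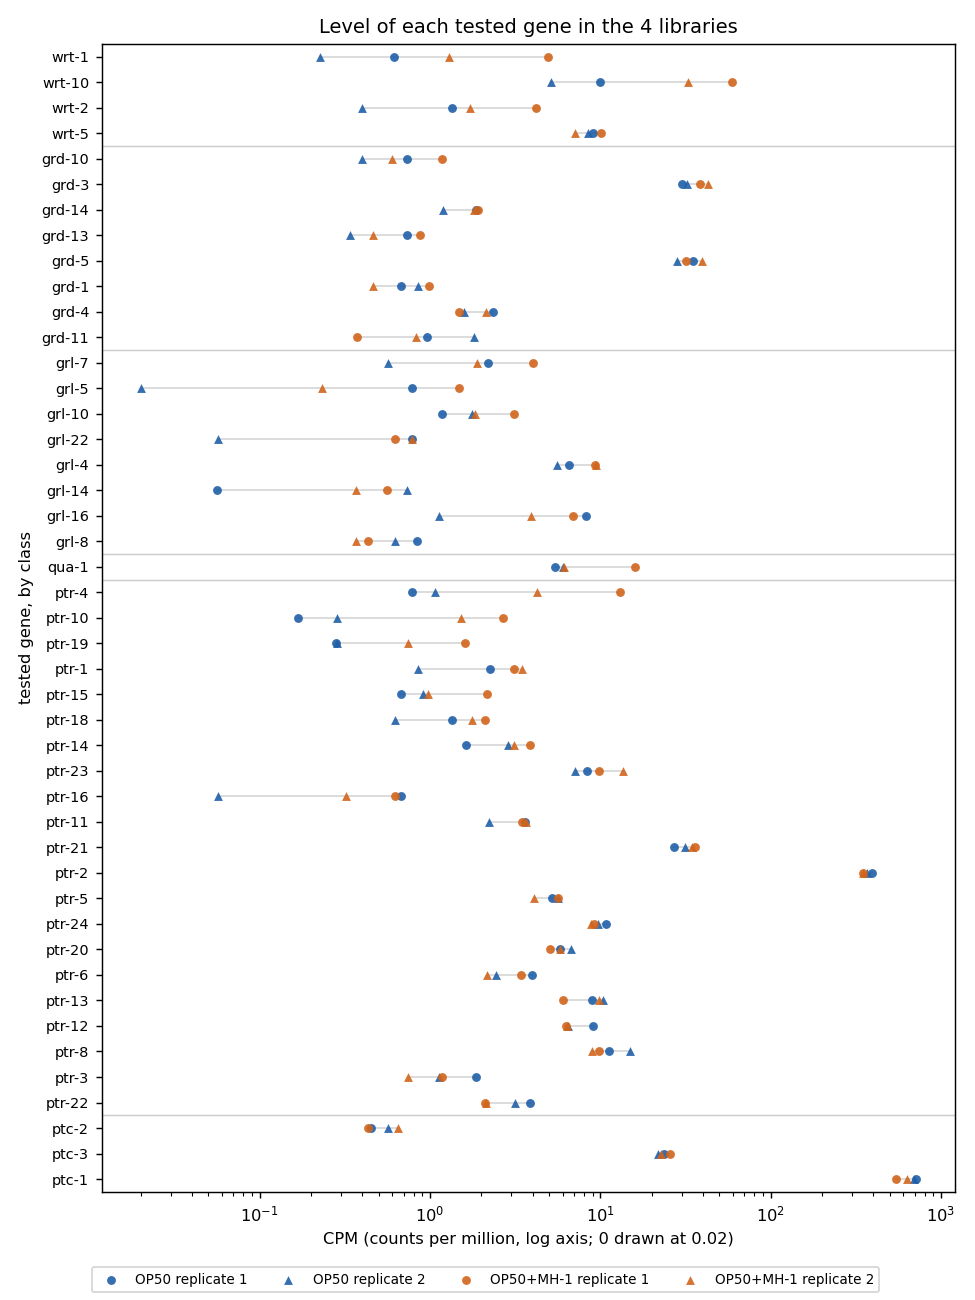
Level of each of the 45 tested genes in CPM on a log axis, with 1 point per library (blue OP50, orange OP50 + MH-1; circles replicate 1, triangles replicate 2). wrt-10 and ptr-4 have both orange points well above both blue ones, while ptc-1, ptr-2, grd-5 and grd-3 are high in all 4 libraries.

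A warthog gene and a patched-related gene rose with MH-1, and no gene of either family passed as lower. The 2 called genes, wrt-10 and ptr-4, were 2 of 45 tested, at an adjusted p under 0.05 in edgeR's quasi-likelihood test with Benjamini-Hochberg adjustment over 12640 genes. Of all tested genes 2.15% were called, 1.82% as higher and 0.332% as lower, so a share of 2 in 45 is not read as a feature of these families. Without adjustment, 10 of the 45 had a p under 0.05 as higher and 3 as lower, where 9.46% and 4.61% of all tested genes did. The median log2 fold change was 0.28 over the 45 genes and 0.00 over all tested genes. Fitted changes of at least 2-fold were found in 9 genes as higher and in 1 as lower, where 5.46% and 1.31% of all tested genes had them. Both libraries of the MH-1 label lay above both of the OP50 label for 16 of the 45 genes, against 24.4% of all tested genes, and below for 8, against 21.6%. ptr-10 and ptr-19, which count among the 10, the 9 and the 16 genes higher with MH-1, passed the low-count filter through the MH-1 libraries alone. grl-8, among the 8, passed it through the OP50 libraries alone.

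Among the ligand-like genes, wrt-10 changed most clearly. wrt-10 (WBGene00006956) encodes a secreted warthog protein and lies on chromosome II from 7533300 to 7534563, minus strand, in ce11 (WBcel235). It stood at 9.98 and 5.15 CPM in the OP50 libraries and at 59.0 and 32.5 CPM in the MH-1 libraries. Both MH-1 libraries were at least 3 times as high as either control library. The means were 7.57 ± 3.42 and 45.7 ± 18.7 CPM (SD, n = 2), a fitted rise of 6.01-fold. The log2 fold change of 2.59 ± 0.37 (SE) had an edgeR adjusted p of 0.0227. The call held without any 1 library (adjusted p between 9.13e-06 and 0.0459), but was lost with limma-voom (adjusted p = 0.0565) and with robust dispersion (adjusted p = 0.154).

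The neighbouring warthog gene wrt-1 showed the same order of libraries at a much lower level. wrt-1 lies on chromosome II from 7531145 to 7533246 on the plus strand, so that the genes face each other tail to tail with 53 bases between them. It had 11 and 4 counts in the OP50 libraries and 80 and 28 counts in the MH-1 libraries. The groups did not overlap, but the replicates with MH-1 differed 3.84-fold between themselves. Its log2 fold change was 2.85 ± 0.79 (SE) and did not pass (edgeR adjusted p = 0.157). DESeq2 called it (adjusted p = 0.0166), and the range without each library was 0.0318 to 0.634. How reads running past the end of a gene were counted is not stated in the sources used, and their part in the count of wrt-1 was not tested.

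The remaining warthog genes did not pass. wrt-2, known in worms from the epidermis, had 24 and 7 counts against 68 and 37, a log2 fold change of 1.74 ± 0.66 (SE, edgeR adjusted p = 0.309), and was called without OP50 replicate 1. Its span overlaps pccb-1 on the opposite strand. wrt-5, another secreted warthog protein, was level, at 9.03 and 8.49 CPM in the OP50 libraries and 10.03 and 7.06 CPM in the others. The MH-1 values of wrt-5 lay on both sides of the control values, and its log2 fold change was -0.04 ± 0.23 (SE). The other 6 warthog genes, wrt-3, wrt-4, wrt-6, wrt-7, wrt-8 and wrt-9, had between 0 and 13 counts in a library and were not tested.

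Among the groundhog genes, grd-5 and grd-3 were the most abundant ligand-like genes per length, and none of the class passed. The next groundhog gene, grd-4, averaged 3.40 TPM. grd-3 stood at 30.1 and 32.4 CPM in the OP50 libraries and at 38.5 and 43.0 CPM in the MH-1 libraries. The diets did not overlap for grd-3, but the difference was small, with a log2 fold change of 0.38 ± 0.11 (SE), and did not pass (edgeR adjusted p = 0.159). grd-5 stood at 34.9 and 28.0 CPM against 32.0 and 39.6 CPM, so its groups overlapped. grd-3 lies on chromosome IV from 3439655 to 3440453, between grd-13 and grd-10 on the same strand. These neighbours differ in level: grd-3 averaged 70.0 TPM, grd-10 1.72 TPM and grd-13 1.31 TPM. grd-10, known from the seam cells of the epidermis, had 13 and 7 counts against 19 and 13, the largest positive log2 fold change of the tested groundhog genes (0.63 ± 0.62, SE). grd-11 had the most negative one (-1.16 ± 0.59, SE; edgeR adjusted p = 0.451), with 17 and 32 counts against 6 and 18, and its span overlaps K02E2.8 on the opposite strand. Of 17 groundhog genes, 8 were tested, and the other 9 had between 0 and 13 counts in a library. grd-6, with 9 and 5 counts against 13 and 11, had the highest total among all untested genes of the 2 families.

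Ground-like genes were scarce, and several varied more between the control libraries than between the diets. Of 32 genes, 8 were tested, 7 with a positive and 1 with a negative log2 fold change, and none passed. grl-4, the most abundant per length, stood at 6.504 and 5.55 CPM in the OP50 libraries and at 9.29 and 9.41 CPM in the MH-1 libraries. The replicates of grl-4 lay close together and the diets did not overlap, but with a log2 fold change of 0.63 ± 0.20 (SE) it did not pass (edgeR adjusted p = 0.221). grl-7 had 39 and 10 counts against 65 and 41, with a log2 fold change of 1.08 ± 0.65 (SE), the largest in its class. grl-8 had the most negative one, -0.87 ± 0.58 (SE), with 15 and 11 counts against 7 and 8. grl-16 had 147 and 20 counts in the OP50 libraries, a 7.28-fold difference in CPM within the control group, and 112 and 85 counts in the others. Both MH-1 values of grl-16 fell between the control values, and it was called as higher in the fit without OP50 replicate 1. The other 24 ground-like genes had between 0 and 29 counts in a library. The highest of these counts was that of grl-15, with 2 and 0 counts against 29 and 2, a value carried by OP50 + MH-1 replicate 1 and named after it was seen.

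Of the single-member classes, qua-1 was tested and did not pass, and hog-1 was too low to test. qua-1, a Hint-domain protein known from the epidermis and molting, stood at 5.44 and 6.06 CPM in the OP50 libraries and at 16.04 and 6.09 CPM in the MH-1 libraries. One MH-1 library of qua-1 was thus high and the other close to the controls. Its log2 fold change of 0.93 ± 0.42 (SE) did not pass (edgeR adjusted p = 0.3904). Without MH-1 replicate 2 it was called, with an adjusted p of 0.0377. hog-1 had 2 and 2 counts against 8 and 11.

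**Figure D2:**
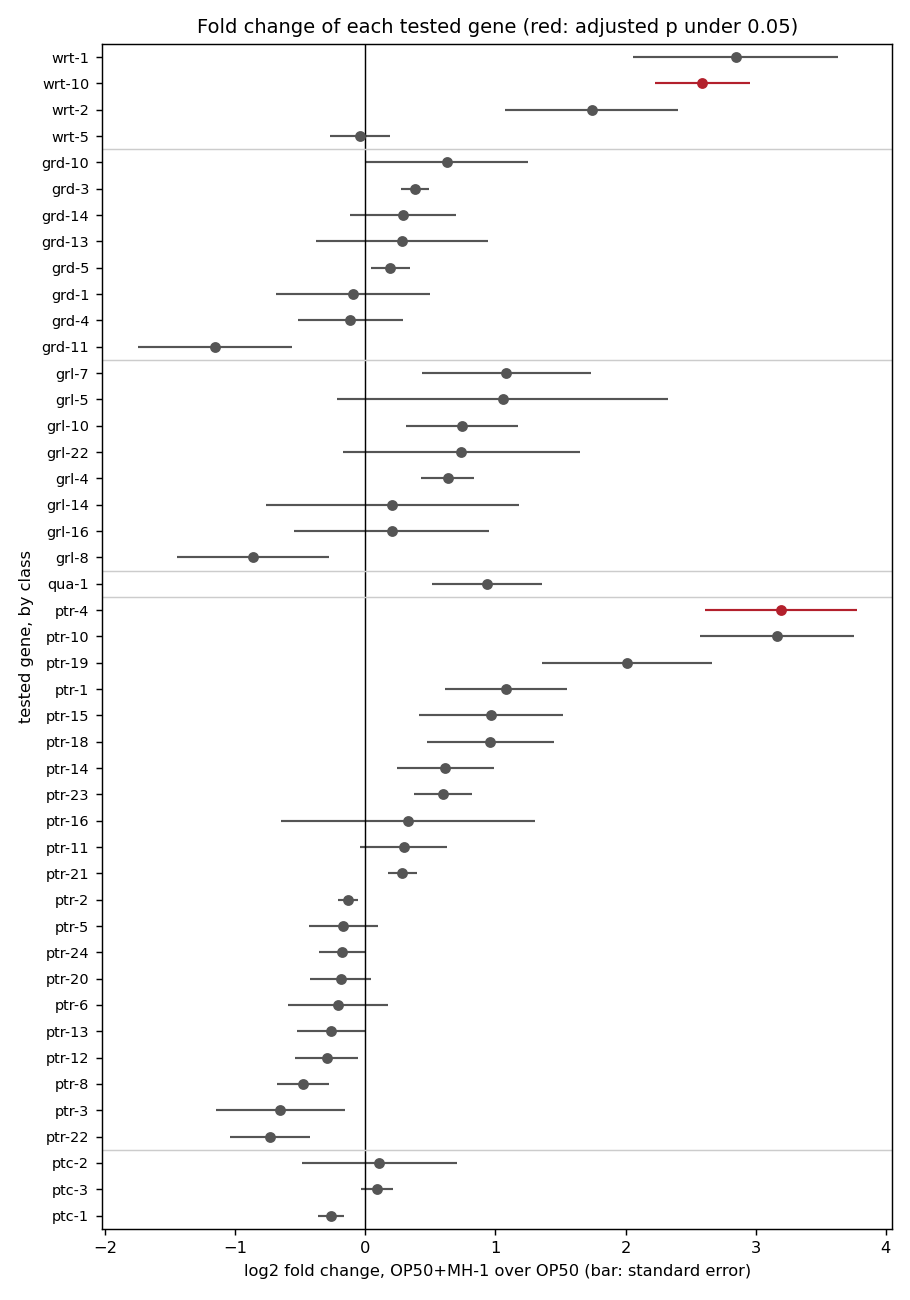
Log2 fold change of each of the 45 tested genes, OP50 + MH-1 over OP50, with its standard error, by class. wrt-10 (2.59) and ptr-4 (3.19) are drawn in red as called, and the patched-related genes spread to both sides of 0.

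Among the patched-related genes, ptr-4 rose and the most abundant members moved little. ptr-4 (WBGene00004219), a membrane protein known for assembly of the precuticle matrix, lies on chromosome X from 6060754 to 6065986, minus strand. It had 14 and 19 counts in the OP50 libraries and 210 and 92 counts in the MH-1 libraries. In CPM these were 0.785 and 1.08 against 13.01 and 4.24, and both MH-1 libraries lay above the controls, although 3.06-fold apart. The means were 0.930 ± 0.205 and 8.63 ± 6.20 CPM (SD, n = 2), a fitted rise of 9.14-fold. The log2 fold change was 3.19 ± 0.58 (SE), with an edgeR adjusted p of 0.0471. The call was lost without MH-1 replicate 1 (adjusted p = 0.0966), and also with limma-voom (0.227), robust dispersion (0.0852) and legacy=FALSE (0.0990).

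ptr-10, whose promoter is widely used to label glia in worms, had a fitted log2 fold change close to that of ptr-4 at a lower level and did not pass. It had 3 and 5 counts in the OP50 libraries and 43 and 33 counts in the MH-1 libraries. The groups were well apart, with means of 0.226 ± 0.0812 and 2.09 ± 0.807 CPM (SD, n = 2). Its log2 fold change was 3.16 ± 0.59 (SE), and the edgeR adjusted p of 0.05001 lay just above the threshold. It entered the test through the MH-1 libraries alone, since no OP50 library reached the filter's minimum of 0.554 CPM. The same was so for ptr-19, and the reverse for grl-8. Across the other settings the adjusted p of ptr-10 ran from 2.41e-05 with no filter to 0.265 without MH-1 replicate 1. ptr-10 lies on chromosome I from 5662143 to 5667160 and overlaps F55F8.8 on the opposite strand. The 6 glia markers fig-1, vap-1, kcc-3, delm-1, delm-2 and hlh-17 summed to 9.03 and 12.8 CPM against 9.04 and 7.94 CPM, with overlapping groups. Of the 3 tested, 1 had a positive log2 fold change and none passed, and delm-1 and delm-2 had no read in any library.

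Other patched-related genes had the same order of groups without passing. ptr-19 had 5 and 5 counts against 26 and 16, with a log2 fold change of 2.01 ± 0.66 (SE, edgeR adjusted p = 0.227). ptr-1 had 40 and 15 counts against 50 and 75, with a log2 fold change of 1.08 ± 0.47 (SE, edgeR adjusted p = 0.367), and overlaps spas-1 on the opposite strand. In both genes the diets did not overlap in CPM, as was also so for ptr-14, ptr-15, ptr-18, ptr-21 and ptr-23. On the other side, ptr-22 had the most negative log2 fold change of the ptr class, -0.73 ± 0.31 (SE, edgeR adjusted p = 0.353). It stood at 3.87 and 3.17 CPM against 2.11 and 2.12 CPM, and these groups did not overlap either. The same held for ptr-2, for ptr-8 (11.2 and 14.9 CPM against 9.79 and 8.95 CPM), for ptr-12 and for ptr-24, also without passing. Over all tested genes, the diets were apart in this way for 24.4% as higher and 21.6% as lower with MH-1. Of the 21 tested ptr genes, 11 had a positive and 10 a negative log2 fold change, with a class median of 0.28. The untested ptr-9 and ptr-17 had between 0 and 5 counts in a library.

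The abundant ptr-2 and ptc-1 had the smallest standard errors of the 45 tested genes. ptc-1, a Patched homologue known for cytokinesis in the germline, stood at 711 and 698 CPM in the OP50 libraries and at 542 and 628 CPM in the MH-1 libraries. Both MH-1 values of ptc-1 were lower, with a log2 fold change of -0.27 ± 0.10 (SE), which did not pass (edgeR adjusted p = 0.300). ptr-2 stood at 394 and 368 CPM against 348 and 346 CPM, a log2 fold change of -0.14 ± 0.08 (SE, edgeR adjusted p = 0.504). Beside ptc-1, the 13 germline and oocyte markers all had a negative log2 fold change with a median of -0.14, none passed, and their sum was 12059 and 11685 CPM against 10584 and 10579 CPM. The part of germline content in the value of ptc-1 was not tested. ptc-3, the other coding Patched homologue, stood at 23.7 and 21.8 CPM against 25.6 and 22.8 CPM, with overlapping groups and a log2 fold change of 0.09 ± 0.12 (SE). The pseudogene ptc-2 had 8 and 10 counts against 7 and 14.

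Most of the larger changes were in the scarcer genes, but that of the called wrt-10 was not. Among the 18 tested genes with a mean of at least 5 CPM, 9 had a positive and 9 a negative log2 fold change, and the median was 0.02. Among the 27 below that level, 20 were positive and 7 negative, and the median was 0.61. These 27 include ptr-10 and ptr-19, which passed the filter through the MH-1 libraries alone, and grl-8, which passed through the OP50 libraries alone. All tested genes below 5 CPM had a median of 0.14. At least 2-fold higher were 1 of the 18, wrt-10, and 8 of the 27, against 2.06% and 12.2% of all tested genes in the same ranges of level. The called ptr-4, with group means of 0.930 and 8.63 CPM, fell among the 27. The median standard error was 0.21 for the 18 genes and 0.59 for the 27, so the scarcer genes were also the less precise. The division at 5 CPM was chosen with the values in view and was not tested.

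Single libraries set part of this spread. OP50 replicate 2 was the lowest library for 18 of the 45 genes and OP50 + MH-1 replicate 1 the highest for 20, against 26.7% and 30.6% of all tested genes. The median deviation of the 45 genes from their own mean over the 4 libraries was 0.06 and -0.22 on the log2 scale in the OP50 libraries, and 0.22 and 0.00 in the MH-1 libraries. Over all tested genes it was within 0.0119 of 0 in every library. In the control group, 6 of the 45 genes were more than 3 times as high in replicate 1 as in replicate 2, namely grl-5, grl-7, grl-16, grl-22, ptr-16 and wrt-2, against 1.72% of all tested genes. In the other direction there was grl-14 alone, with 1 and 13 counts, against 1.39%. The cuticle collagens dpy-13 (13.3 and 0.623 CPM) and rol-6 (3.87 and 0.00 CPM) had the same order there, while dpy-7, another, had the opposite one (2.36 and 3.62 CPM), and col-19 stood at 321 and 285 CPM. With MH-1, 3 genes were more than 3 times as high in replicate 1 as in replicate 2, namely wrt-1, grl-5 and ptr-4, against 1.39% of all tested genes. The median log2 fold change of the tested genes also depended on the libraries in the fit. Leaving out OP50 replicate 1 gave 0.64 and leaving out its partner 0.03, while the fits without MH-1 replicate 1 or 2 gave 0.10 and 0.49.

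**Figure D3:**
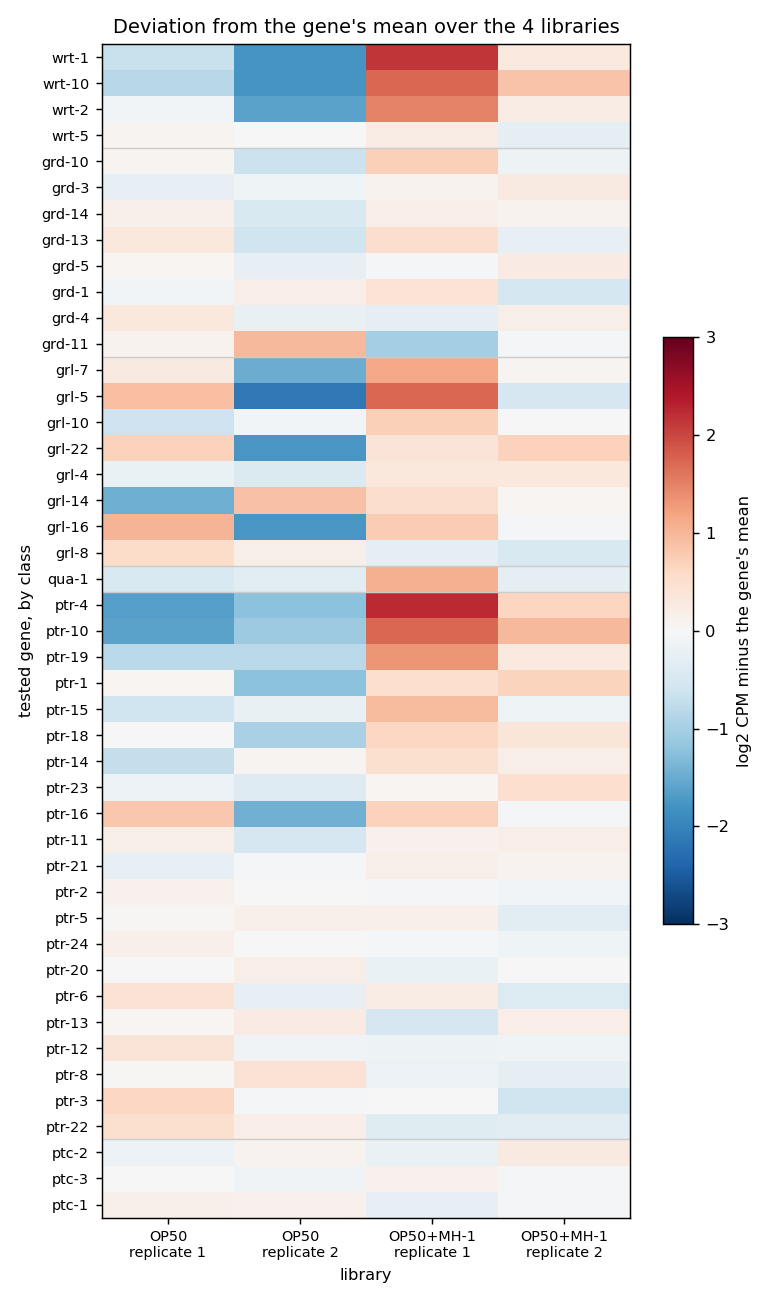
Deviation of each tested gene's log2 CPM from its own mean over the 4 libraries (red above, blue below; columns are libraries, rows are genes by class). wrt-10, wrt-1, ptr-4, ptr-10 and ptr-19 are blue in both OP50 libraries and red in both OP50 + MH-1 libraries, while grl-5, grl-16, grl-22 and ptr-16 are blue mainly in OP50 replicate 2.

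Genes linked to Hedgehog proteins by homology did not pass. Of 7 tested sterol-sensing or Dispatched relatives, 4 had a positive and 3 a negative log2 fold change, with a median of 0.04. che-14, a Dispatched homologue for apical secretion in epithelia, had 3 and 2 counts against 19 and 17, a log2 fold change of 2.73 ± 0.69 (SE, edgeR adjusted p = 0.127). daf-6, a patched-related protein that shapes the glial channel of sense organs, had 5 and 9 counts against 19 and 11 and was too low to test. ncr-1, a homologue of the cholesterol transporter NPC1, stood at 14.1 and 13.2 CPM against 18.5 and 13.2 CPM, with a log2 fold change of 0.21 ± 0.19 (SE). None of the 3 acyltransferase and Gli homologues (hhat-1, hhat-2 and tra-1) passed. tra-1, the Gli homologue that acts in sex determination, stood at 23.2 and 28.4 CPM against 19.2 and 23.99 CPM, with a log2 fold change of -0.25 ± 0.16 (SE). hhat-1, named for homology to the Hedgehog acyltransferase and singled out here after its values were seen, had 9 and 2 counts against 61 and 43. Its log2 fold change was 3.18 ± 0.68 (SE), which did not pass (edgeR adjusted p = 0.0785). Like ptr-10, the genes che-14, hhat-1 and hhat-2 entered the test through the MH-1 libraries alone. No OP50 library reached the filter's minimum of 0.554 CPM for them.

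Several molting and matrix genes rose beside wrt-10 and ptr-4. Of 13 tested molting factors, 5 were called as higher and none as lower, where 1.82% and 0.332% of all tested genes were. In direction 11 of the 13 were positive and 2 negative, and the median log2 fold change was 0.69. bli-5, also listed, had 9 and 3 counts against 1 and 1 and was too low to test. This list was chosen with earlier results of these data known, so its count is a description only. nhr-25, a nuclear receptor of epidermis and molting, went from 5.94 and 5.43 CPM to 16.5 and 15.9 CPM, a log2 fold change of 1.51 ± 0.17 (SE, edgeR adjusted p = 0.0142). nhr-23, a nuclear receptor that drives the molting cycle, stood at 67.8 and 72.7 CPM against 60.1 and 65.9 CPM, a log2 fold change of -0.16 ± 0.09 (SE), and did not pass. The matrix proteins noah-1 and noah-2 rose by 2.12 ± 0.23 and 2.57 ± 0.29 on the log2 scale (SE). fbn-1, a fibrillin-like matrix protein, rose by 1.71 ± 0.26 and mlt-11, a protease inhibitor, by 2.56 ± 0.40 on the log2 scale (SE). In these 4 matrix and inhibitor genes, as in wrt-10, OP50 replicate 2 was the lowest library. With robust dispersion the calls of these 4 were lost (edgeR adjusted p between 0.0706 and 0.197), and without MH-1 replicate 1 those of fbn-1 (0.0628) and mlt-11 (0.0844). Without MH-1 replicate 2 the call of fbn-1 was lost too (0.0588).

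**Figure D4:**
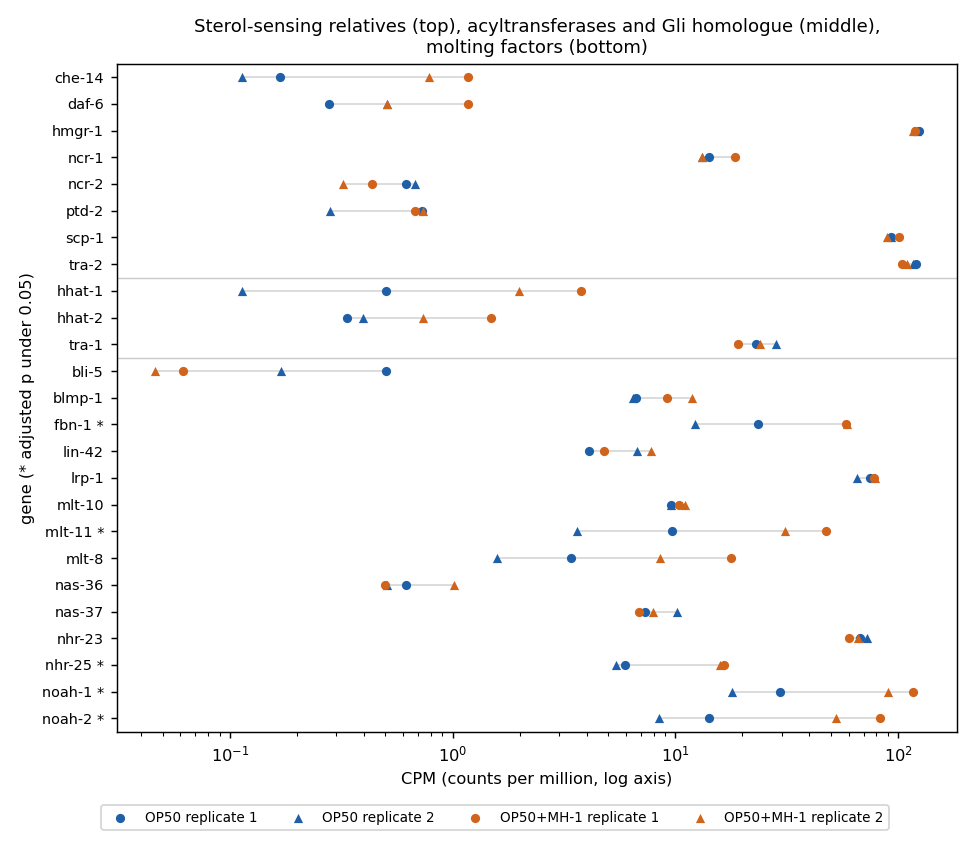
Level in CPM (log axis) in each library of the sterol-sensing and Dispatched relatives, the acyltransferase and Gli homologues and the molting factors, with an asterisk where the adjusted p was under 0.05. The 5 called genes, all molting factors, have both OP50 + MH-1 libraries above both OP50 libraries, while nhr-23, hmgr-1, scp-1 and tra-2 lie close together in all 4.

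Some markers of embryos and of the epidermis also rose with MH-1. Of 12 embryo markers, 10 were tested and hch-1, pha-4 and sym-1 rose, and the other 7 did not pass. Of these 7, tbx-37 (1.30 ± 0.48) and tbx-38 (1.09 ± 0.44) had positive log2 fold changes (± SE). The other 5 were negative, from -0.06 in ceh-51 to -2.29 in tbx-35, which had 13 and 15 counts against 1 and 5. tbx-35 entered the test through the OP50 libraries alone. The embryo list summed to 79.2 and 52.6 CPM in the OP50 libraries and to 208 and 175 CPM in the MH-1 libraries, and med-2 had no read. The 3 called genes carried this rise, so the sum does not show a rise of the list as a whole. From OP50 to MH-1 the mean of sym-1 went from 27.05 to 101.1 CPM. That of hch-1 went from 3.51 to 34.03 CPM and that of pha-4 from 13.71 to 32.52 CPM. Of the other embryo markers ceh-51 had the highest means, 9.91 against 9.49 CPM. The 9 epidermis markers summed to 507 and 454 CPM against 549 and 557 CPM, with dpy-7 and nhr-25 called as higher and bli-1 without a read. Without col-19, which made up most of that sum, they summed to 186 and 169 CPM against 239 and 213 CPM. The 2 called genes made up much of that rise. The mean of dpy-7 went from 2.99 to 26.7 CPM and that of nhr-25 from 5.69 to 16.2 CPM. Of the 8 tested epidermis markers, 6 had a positive and 2 a negative log2 fold change. The collagens dpy-13 and rol-6 of this list had negative log2 fold changes (-0.93 ± 1.01 and -0.46 ± 1.31, SE) and did not pass. The 6 seam cell markers summed to 74.6 and 74.6 CPM against 84.6 and 86.4 CPM, and all 4 tested had a positive log2 fold change (median 0.82) without passing. Most of that sum was egl-18, with means of 67.4 and 72.5 CPM. The largest log2 fold change was that of rnt-1 (2.36 ± 0.70, SE), with 3 and 3 counts against 19 and 14. rnt-1 entered the test through the MH-1 libraries alone, since no OP50 library reached the filter's minimum of 0.554 CPM. The 8 intestine markers summed to 2194 and 2464 CPM against 1418 and 1783 CPM, with 3 positive and 5 negative and none passing. Most of that sum was asp-1, and without it the sums were 362 and 369 CPM against 317 and 357 CPM. Of 7 body wall muscle markers, pat-10 was called as higher, and the sums were 1803 and 1657 CPM against 1857 and 1973 CPM. Neuron markers summed to 286 and 289 CPM against 299 and 273 CPM, with overlapping groups. The part of any of these tissues in the changes of wrt-10 and ptr-4 was not tested.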

How the data were processed

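Whole-worm poly(A) RNA was sequenced in 4 libraries, 2 per diet, with a kit that keeps the strand (labels' protocols). The submitters' processing notes name ce11 (WBcel235), featureCounts 2.0.1, STAR 2.7.10a, cutadapt 3.7, Trimmomatic 0.39 and Trim Galore 0.6.7. Their order, how multi-mapped reads were counted and whether strand was used are not stated, so closely similar family members are uncertain. The deposited values are raw read counts per gene, per the file headers. Samples were grouped by title, against the column headers.

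Counts were fitted in R 4.3.3 with edgeR 4.0.16 (filterByExpr with a minimum count of 10 and total of 15, TMM scaling, glmQLFit and glmQLFTest at their defaults, group as the only term). Benjamini-Hochberg adjustment ran over all 12640 tested genes, with a threshold of 0.05. CPM use TMM-adjusted library sizes, and TPM use the deposited gene lengths. The standard error is the size of the log2 fold change divided by the square root of F. Every pair of libraries differed beyond sampling noise (chi-square over degrees of freedom from 10.1 to 33.6, in genes with 20 or more counts per pair). The lowest value was that of the OP50 pair. The MH-1 pair gave 24.8, more than MH-1 replicate 2 gave with OP50 replicate 1 (19.6) or OP50 replicate 2 (18.9). The steps were tested on simulated data. With 2 libraries per group, an exact permutation test cannot reach 0.05.

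The genes, the lists of partners and markers and the rule for naming genes were chosen with earlier results of these data known. The rule names genes called, genes with an adjusted p up to 0.2, the largest change each way and the highest level of each class, the highest untested gene, and hog-1, qua-1, ptc-1, ptc-3, che-14, daf-6, ncr-1, tra-1, nhr-23 and nhr-25 whatever their values. Others, such as ptr-19, ptr-1, wrt-2, grl-16 and single markers, were named, and the marker sums without asp-1 or col-19 taken, after values were seen. The listed names disp-1 and disp-3 were not matched in the tables. Alternatives were other scalings, filters, tools (DESeq2 1.42.0, limma-voom in limma 3.58.1) and dispersion settings, a replicate block, a threshold of 0.10, and each library left out. Gene positions and types come from the tables and Ensembl release 115. No sequences were used, so a planned description of promoter motifs was not made. Figures were drawn with matplotlib 3.10.9.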

Additional observations from a re-analysis of the deposited data

How the results depend on the processing

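The number of genes called as higher was small and moved with the settings, while no gene of the families was called as lower in any alternative run (3 of 45 had an unadjusted p under 0.05 as lower in edgeR). Against 2 in the reported fit, DESeq2 and the replicate block each called 4, no filter called 8, robust=TRUE called 1 (ptr-10), legacy=FALSE called 1 (wrt-10), limma-voom called 0, and leaving out each library gave 1 to 5 (wrt-10 in each). Of all tested genes these settings called 3.23% (DESeq2), 3.56% (block), 4.13% (no filter), 1.76% (robust), 1.63% (legacy) and 1.07% (limma-voom) as higher, and 0.754% to 2.98% without each library. The median log2 fold change ran from 0.033 to 0.64 over the fits that leave out a library. Molting factors and partners called as higher numbered 9 with no filter and 1 with robust=TRUE, against 5, and 3 to 7 without each library. Near 0, directions turned: ncr-1 ran from -0.044 to 0.44, ptc-2 from -0.22 to 0.35 and wrt-5 from -0.31 to 0.20 over the fits without a library, and wrt-5 was 0.0050 with total counts only. The same direction in every fit that tested them was found for 31 of the 45 genes. Causes were not tested. A fit without a library leaves 1 sample alone in its group, assumed to vary like the other group. The titles' replicate numbers are shared by the diets without a stated batch. Same-numbered libraries deviated together with a correlation of 0.21 over all tested genes, which with 2 pairs does not establish pairing. With the block, wrt-1 (adjusted p = 0.0135) and ptr-10 (adjusted p = 0.0262) were called as well.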
